A study of Homo sapiens with 8 samples.

Results

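The 44 genes described here encode large chromatin modifiers and remodelers. They cover the KMT2 and SETD1 family of histone H3 lysine 4 methyltransferases, methyltransferases of lysine 36, histone acetyltransferases with their scaffolds, ATP-driven nucleosome remodelers, bromodomain readers and histone demethylases. The genes were given as a list of symbols, most with long mRNAs, by a rule that uses no measured value, although earlier results of these libraries were known when the list was drawn up. All 44 were found among the 59385 gene symbols of the count table, and all 44 passed the filter on low counts that left 16228 tested genes.

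Enzymes of this kind write, erase or read chemical marks on histone tails, or spend ATP to slide, evict or exchange nucleosomes, and so set which promoters and enhancers are open. Most work inside multi-subunit complexes (COMPASS, SWI/SNF, NuRD, INO80 and others) in which a large catalytic or scaffold protein is joined by smaller partners. In cardiac fibroblasts, acetyltransferases and BET readers are known for their part in the gene programme of activated, matrix-producing cells.

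The cells were IHCF, an immortalized line of human cardiac fibroblasts, infected with a lentivirus whose short hairpin RNA either targeted EIF4G2 or was scrambled. EIF4G2, also called DAP5, is a translation scaffold related to EIF4G1 that lacks the binding site for the cap-binding protein eIF4E. In each kind of cell, RNA from polysomes (mRNAs loaded with several ribosomes) and total RNA were sequenced, and the question was how loss of EIF4G2 changes the level and the polysome loading of mRNAs. The 4 groups were EIF4G2 knockdown polysomal RNA, EIF4G2 knockdown total RNA, scramble polysomal RNA and scramble total RNA, with 2 libraries each. All cells were kept in serum-free medium for at least 6 h and then received TGF-beta for 24 h, so no group lacks TGF-beta. The labels call the libraries of a group biological replicates, and do not say whether they came from separate cultures, so that the p-values may measure only technical spread. A further hairpin against EIF4G2 or a rescue was not analysed here, so off-target effects of the hairpin and the loss of EIF4G2 cannot be told apart.

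The libraries held 18043714 to 24590030 counts. EIF4G2 had 244 and 334 CPM (counts scaled to the library's TMM-adjusted total) in knockdown polysomes against 875 and 876 CPM in scramble polysomes, a log2 fold change of −1.60 (edgeR adjusted p = 0.0276). In knockdown total RNA it had 293 and 327 CPM, against 793 and 785 CPM in scramble total RNA (log2 fold change −1.35, edgeR adjusted p = 0.0504), so that 39.3% of the scramble level was left. Of 12 fibroblast markers, 10 were above 1 CPM in every total library, while FAP and DCN were not. No leukocyte marker of 8 was, the endothelial markers above 1 CPM were 3 of 8, and of 10 cardiomyocyte markers only NKX2-5 was, with MYH6 and MYH7 at 0. The cardiomyocyte markers summed to 337 and 440 CPM in knockdown total RNA against 301 and 301 CPM in scramble total RNA. In polysomes they summed to 776 and 969 CPM in knockdown against 624 and 807 CPM in scramble cells. Since only NKX2-5 was above 1 CPM in every total library, these sums are not spread over the list. Their part in the results was not tested. A pair of libraries stood apart in ways that touch the genes described here. In knockdown total replicate 1 the median transcript length per count was 2741 nt, against 3028 to 3079 nt in the other total libraries. In scramble polysome replicate 1 mitochondrially encoded genes took 7.12% of counts, against 14.5% to 17.5% in the other polysome libraries. They took 3.88% to 4.21% in the total libraries, to which this polysome library was thus the nearest.

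The mRNAs of the 44 genes were long. Their representative transcripts measured 4595 to 19419 nt with a median of 8408.5 nt, against a median of 3225 nt over 12666 tested protein-coding genes (lengths from GENCODE release 29, GRCh38). Of the 44, 41 had transcripts of at least 5000 nt. The coding part had a median of 5955 nt against 1413 nt, and the number of exons a median of 28 against 9. KMT2D, a methyltransferase that marks enhancers (chr12:49018975-49059774, minus strand, 54 exons), had the longest transcript. KDM2B, a histone demethylase (chr12:121429097-121581015, minus strand, 23 exons), had the shortest. Of the 40 genes with an annotated leader of at least 12 nt, 32 (80.0%) had an ATG upstream of the start codon, against 54.9% of 12288 protein-coding genes. A purine at position −3 from the start codon (counted back from its first base) was present in 31 of 40 (77.5%), against 86% of protein-coding genes.

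The stretches around the annotated start codons are shown for the members at both ends of the polysomal to total difference described next that have such a leader, to let the reader compare their initiation sites. BRD2, KDM2B and CHD9 lay at the high end, KMT2A, EP400 and SRCAP at the low end, and EP300 and CREBBP are a paralog pair. Each sequence runs 5′ to 3′ on the sense strand, with 12 bases before and 6 after the start codon, which is in capitals, from GENCODE release 29 transcripts.
BRD2: cttgcggtcaagATGctgcaa
KDM2B: tgcctcctccacATGgcgggt
CHD9: agaattttcaagATGacagat
KMT2A: cacggggcgaacATGgcgcac
EP400: agggaggtgatcATGcaccat
SRCAP: gggagtgggaccATGcagagc
EP300: aaagaattaaaaATGgccgag
CREBBP: gagcaggtgaaaATGgctgag
The leader of BRD2 held 15 upstream ATGs within 1701 nt, while the leaders of KMT2A and EP400 held 0 within 23 nt and 35 nt. Across the 44 genes the number of upstream ATGs and the polysomal to total difference in scramble cells had r = 0.324 and rho = 0.365, a description across genes that share libraries, against r = −0.043 over 12639 protein-coding genes. Only 40 of the 44 have a leader of at least 12 nt. The others, with little or no room for an upstream ATG, are included in these coefficients. Longer leaders have more room for upstream ATGs, and the members' leaders had a median of 309 nt against 203 nt over protein-coding genes. Leader length itself (log2) had r = 0.338 and rho = 0.277 over the 44 genes, against r = −0.004 over 12666 protein-coding genes. The parts of leader length and of upstream ATGs were not tested.

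Nearly all of the 44 mRNAs were much scarcer in polysomal than in total RNA, with either hairpin. In knockdown cells 43 of 44 were lower in polysomal RNA at an edgeR adjusted p under 0.05, where 34.1% of all tested genes were called lower. In scramble cells 43 of 44 were also lower, where 33.7% of all tested genes were called lower. The same 43 genes were called in both, which 29% of all tested genes were. The median log2 fold change of the 44 was −2.74 in knockdown cells (6.69-fold lower) and −2.72 in scramble cells (6.60-fold lower), against medians of −0.16 and −0.17 over all tested genes. Both polysome libraries lay below both total libraries for 43 genes in knockdown cells (background 44.9%) and for 43 in scramble cells (background 46.1%). BRD2 was the exception in each of these counts. The median in knockdown cells is the same with SRCAP, whose counts there were 0, placed at the bound given below for it. As a share of all counts, without TMM scaling, the 44 genes together took 0.0313% and 0.0274% in knockdown polysomes against 0.297% and 0.399% in knockdown total RNA. They took 0.0393% and 0.0314% in scramble polysomes against 0.412% and 0.396% in scramble total RNA. The share in total RNA was thus 11.9 times that in polysomes in knockdown cells and 11.4 times in scramble cells.

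**Figure D1:**
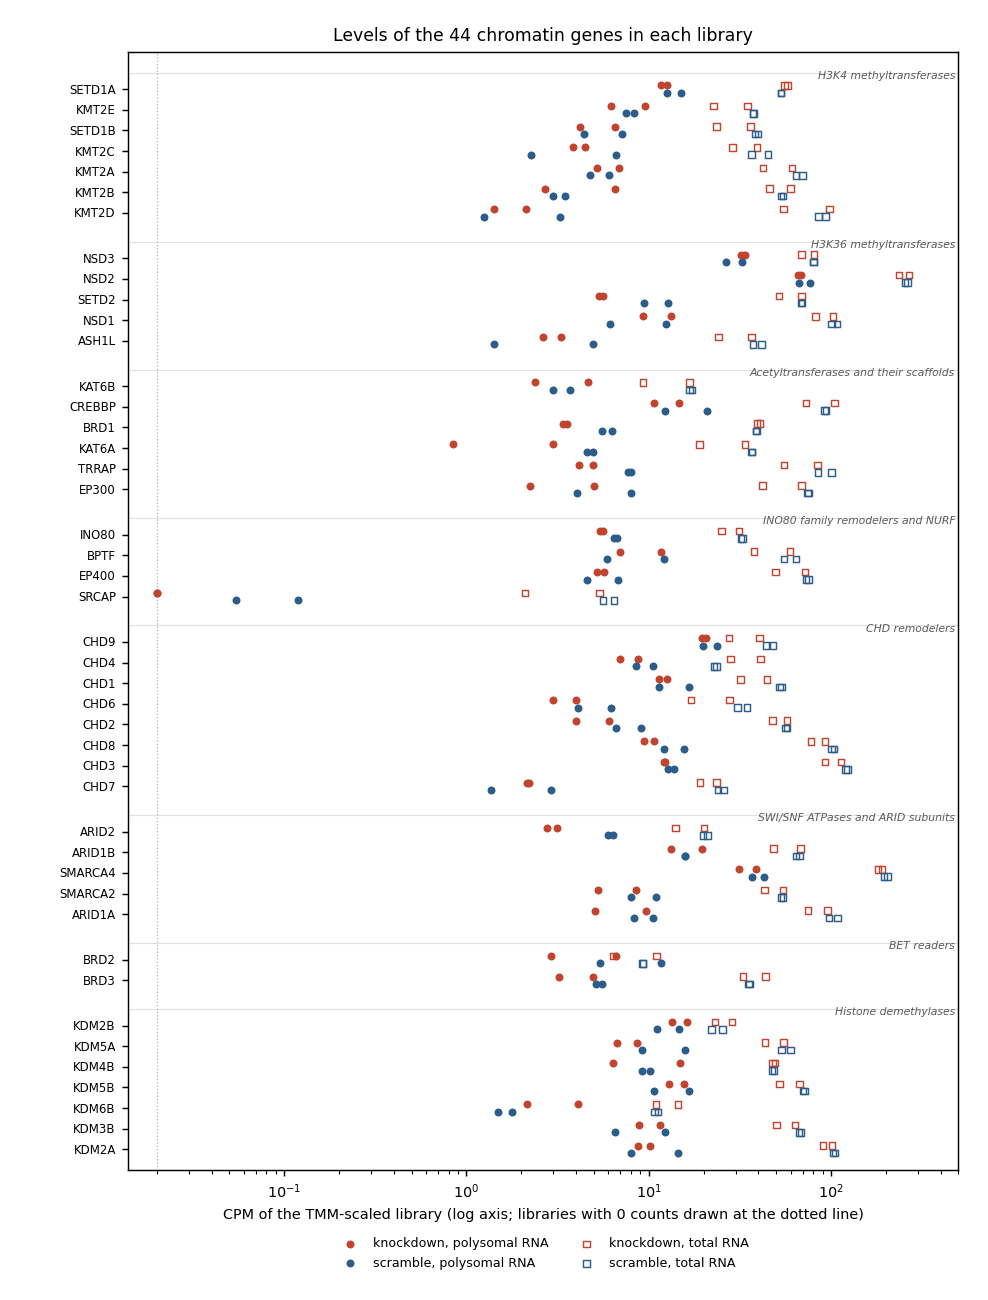
CPM of the TMM-scaled library (log axis) for each of the 44 genes in each of the 8 libraries, grouped by role, with libraries at 0 counts drawn at the dotted line. For 43 genes the polysome libraries lie to the left of the total libraries with either hairpin, and BRD2 is the gene whose libraries overlap.

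Polysome share below means the TMM-scaled level in polysomal RNA relative to that in total RNA. Its size depends on the scaling, and it is not the part of an mRNA that sits on polysomes. The KMT2 and SETD1 family holds the main methyltransferases of H3 lysine 4. It included 3 of the 5 members with the lowest polysome share in scramble cells (KMT2D, KMT2B and KMT2A). KMT2D had 1.42 and 2.12 CPM in knockdown polysomes against 54.9 and 98 CPM in knockdown total RNA, and 3.25 and 1.25 CPM in scramble polysomes against 93.5 and 85.7 CPM in scramble total RNA. Its polysomal level was 2.31% of the total level in knockdown cells and 2.51% in scramble cells (log2 fold changes −5.45 ± 0.42 and −5.30 ± 0.40, ± SE, edgeR adjusted p = 1.93e-06 and 1.67e-06). The polysome and total libraries of KMT2D were far apart with either hairpin. SETD1A, the catalytic subunit of a COMPASS complex that marks promoters, had the highest polysome share of the 7 genes of this family in scramble cells. It had 11.7 and 12.6 CPM in knockdown polysomes against 55.7 and 57.9 CPM in knockdown total RNA, and 12.6 and 15.0 CPM in scramble polysomes against 53.1 and 53.4 CPM in scramble total RNA (log2 fold changes −2.23 ± 0.17 and −1.95 ± 0.16). Its replicates were close to each other and its fractions did not overlap. KMT2A and KMT2B, founding members of the MLL family, had log2 fold changes of −3.11 and −3.49 in knockdown cells and −3.63 and −4.06 in scramble cells. KMT2C, which like KMT2D marks enhancers, had −3.03 in knockdown and −3.19 in scramble cells. SETD1B, the paralog of SETD1A, had −2.49 in knockdown and −2.75 in scramble cells. KMT2E, a SET-domain protein not known as an active methyltransferase, had −1.85 in knockdown and −2.24 in scramble cells.

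Among the 5 enzymes that methylate H3 lysine 36, NSD3 had the highest and ASH1L the lowest polysome share in scramble cells. NSD3 had 32.0 and 33.9 CPM in knockdown polysomes against 69.0 and 80.9 CPM in knockdown total RNA, and 32.3 and 26.5 CPM in scramble polysomes against 80.2 and 80.3 CPM in scramble total RNA (log2 fold changes −1.19 ± 0.16 and −1.45 ± 0.16). ASH1L, a Trithorax-group enzyme, had 3.31 and 2.63 CPM in knockdown polysomes against 24.1 and 36.6 CPM in knockdown total RNA, and 4.98 and 1.42 CPM in scramble polysomes against 41.5 and 37.3 CPM in scramble total RNA. In knockdown cells the polysomal level was thus 43.9% of the total level for NSD3 and 9.78% for ASH1L. The ASH1L libraries differed more between replicates than those of NSD3, and its log2 fold changes were −3.34 ± 0.43 in knockdown and −3.60 ± 0.42 in scramble cells. SETD2, the enzyme for trimethylation of this residue, had −3.47 in knockdown and −2.63 in scramble cells. NSD1 had −3.04 and −3.48, and NSD2 −1.91 and −1.85, again with knockdown cells first. NSD2 was with SMARCA4 the most abundant of the 44 in total RNA, at 32.3 and 33.2 CPM per kb of transcript in knockdown and scramble cells.

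EP300 and CREBBP, paralogous acetyltransferases that act as coactivators at enhancers, stood at different levels. EP300 had 2.23 and 5.01 CPM in knockdown polysomes against 42.2 and 69.0 CPM in knockdown total RNA, and 8.01 and 4.04 CPM in scramble polysomes against 75.2 and 74.3 CPM in scramble total RNA (log2 fold changes −3.97 ± 0.40 and −3.63 ± 0.37). CREBBP had log2 fold changes of −2.80 ± 0.27 in knockdown and −2.49 ± 0.27 in scramble cells. The difference between the paralogs, EP300 minus CREBBP, was −1.18 and −1.13 on the log2 scale and was not tested. KAT6B, a MYST-family acetyltransferase, had the highest polysome share of this group in scramble cells, with 4.66 and 2.38 CPM in knockdown polysomes against 9.29 and 16.7 CPM in knockdown total RNA, and 3.68 and 2.97 CPM in scramble polysomes against 16.8 and 17.3 CPM in scramble total RNA. Its fractions did not overlap (log2 fold changes −1.87 ± 0.36 and −2.35 ± 0.36), and its paralog KAT6A had −3.73 and −2.95. TRRAP, the scaffold of the SAGA and TIP60 acetyltransferase complexes, had log2 fold changes of −3.93 ± 0.24 and −3.56 ± 0.23 (edgeR adjusted p = 7.52e-07 and 8.83e-07). BRD1, a scaffold of acetyltransferase complexes, had −3.53 ± 0.20 and −2.72 ± 0.18 (edgeR adjusted p = 4.97e-07 and 9.81e-07).

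The large remodelers of the INO80 family and the NURF subunit BPTF were likewise low in polysomes. SRCAP, which exchanges the histone variant H2A.Z into nucleosomes, had 0 and 0 counts in knockdown polysomes against 67 and 163 counts in knockdown total RNA, and 1 and 2 counts in scramble polysomes against 193 and 150 counts in scramble total RNA. Its polysomal level in knockdown cells was at least 32.8-fold lower than its total level, taking 3 counts over the group as the floor, and in scramble cells the total level was 71.2 times the polysomal level with a 95% exact interval of 24.1 to 347. The interval and the floor cover counting error only. Exons of other annotated genes cover 76.0% of the exonic bases of SRCAP, so its counts are uncertain, since how the authors counted reads in shared stretches is not given in the sources used here. INO80, the motor of the complex of that name, had 5.40 and 5.60 CPM in knockdown polysomes against 25.0 and 31.4 CPM in knockdown total RNA, and 6.71 and 6.47 CPM in scramble polysomes against 32.2 and 32.7 CPM in scramble total RNA. Its log2 fold changes of −2.36 ± 0.20 and −2.30 ± 0.20 were close to each other. EP400, the motor of the TIP60 complex, had −3.48 ± 0.25 in knockdown and −3.70 ± 0.25 in scramble cells, and BPTF had −2.37 and −2.72.

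The 8 CHD remodelers covered a wide range. CHD9 had 20.6 and 19.6 CPM in knockdown polysomes against 27.6 and 40.6 CPM in knockdown total RNA, and 23.6 and 19.8 CPM in scramble polysomes against 48.1 and 44.1 CPM in scramble total RNA. Its polysomal level was 59.0% of the total level in knockdown cells and 47.1% in scramble cells (log2 fold changes −0.76 ± 0.20 and −1.09 ± 0.20, edgeR adjusted p = 0.00767 and 0.000749). Its transcript of 13110 nt was longer than that of any other member of the CHD family listed. CHD7, a remodeler needed in heart and neural crest development, had the lowest polysome share of the family in scramble cells, with 2.16 and 2.21 CPM in knockdown polysomes against 19.1 and 23.6 CPM in knockdown total RNA, and 2.92 and 1.37 CPM in scramble polysomes against 24.0 and 25.7 CPM in scramble total RNA. CHD9 and CHD7 thus differed severalfold in polysome share although both transcripts are long. CHD3, a motor of the NuRD complex, gave the smallest adjusted p of the 44 in both kinds of cell, with log2 fold changes of −3.08 ± 0.17 and −3.20 ± 0.16 (edgeR adjusted p = 4.07e-07 and 4.2e-07). Its paralog CHD4 had −2.15 ± 0.24 and −1.28 ± 0.23, and exons of other genes cover 53.5% of the exonic bases of CHD4. CHD8, known as a regulator of WNT target genes, had −3.09 ± 0.19 and −2.88 ± 0.18. CHD1, which binds trimethylated H3 lysine 4, had −1.66 and −1.91, CHD2 −3.40 and −2.85, and CHD6 −2.68 and −2.66.

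In the SWI/SNF complexes, the DNA-binding subunits ARID2 and ARID1A marked the ends of the range. ARID2, which defines the PBAF form, had 2.77 and 3.14 CPM in knockdown polysomes against 14.1 and 20.1 CPM in knockdown total RNA, and 6.01 and 6.35 CPM in scramble polysomes against 19.8 and 21.1 CPM in scramble total RNA (log2 fold changes −2.54 ± 0.26 and −1.73 ± 0.24). ARID1A, which defines the BAF form, had 9.65 and 5.09 CPM in knockdown polysomes against 74.6 and 96 CPM in knockdown total RNA, and 10.6 and 8.31 CPM in scramble polysomes against 109 and 97.4 CPM in scramble total RNA (log2 fold changes −3.51 ± 0.27 and −3.44 ± 0.27). In both genes the polysome libraries lay below the total libraries. ARID1B, the paralog of ARID1A, had −1.82 and −2.06, and the alternative motors SMARCA2 and SMARCA4 had −2.81 and −2.41 in knockdown and −2.50 and −2.32 in scramble cells.

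BRD2, a BET reader of acetylated histones, was the member whose fractions were not called different. It had 2.90 and 6.62 CPM in knockdown polysomes against 11 and 6.42 CPM in knockdown total RNA, and 5.41 and 11.7 CPM in scramble polysomes against 9.24 and 9.33 CPM in scramble total RNA. The polysome replicates of BRD2 differed by more than its fractions did in scramble cells, and its log2 fold changes were −0.89 ± 0.45 and −0.12 ± 0.43 (edgeR adjusted p = 0.106 and 0.818). BRD2 lies in the major histocompatibility region (chr6:32968660-32981505, plus strand), for which the GRCh38 assembly also has alternate copies, so its counts are uncertain. Its relative BRD3 had 4.93 and 3.23 CPM in knockdown polysomes against 33.0 and 43.8 CPM in knockdown total RNA, and 5.14 and 5.52 CPM in scramble polysomes against 35.2 and 35.7 CPM in scramble total RNA (log2 fold changes −3.22 ± 0.25 and −2.73 ± 0.23). The fractions of BRD3 did not overlap, and exons of other genes cover 18.6% of its exonic bases.

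Among the 7 demethylases, the paralogs KDM2A and KDM2B, which act on H3 lysine 36, stood far apart. KDM2B had 16.3 and 13.4 CPM in knockdown polysomes against 23.1 and 28.7 CPM in knockdown total RNA, and 11.1 and 14.6 CPM in scramble polysomes against 25.4 and 22.2 CPM in scramble total RNA (log2 fold changes −0.80 ± 0.21 and −0.89 ± 0.21, edgeR adjusted p = 0.00745 and 0.00385). KDM2A had 10.2 and 8.74 CPM in knockdown polysomes against 90.5 and 101 CPM in knockdown total RNA, and 14.4 and 7.96 CPM in scramble polysomes against 105 and 103 CPM in scramble total RNA (log2 fold changes −3.33 ± 0.25 and −3.21 ± 0.24). In knockdown cells the polysomal level was thus 57.4% of the total level for KDM2B and 9.88% for KDM2A. The H3 lysine 4 demethylases KDM5A and KDM5B had −2.69 and −2.05 in knockdown and −2.18 and −2.37 in scramble cells. KDM3B and KDM4B, which act on H3 lysine 9, had −2.48 and −2.18 in knockdown and −2.85 and −2.32 in scramble cells. KDM6B, which removes methyl groups from H3 lysine 27, had −2.05 and −2.74 and was among the scarcest members in total RNA, at 1.90 and 1.64 CPM per kb in knockdown and scramble cells.

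**Figure D2:**
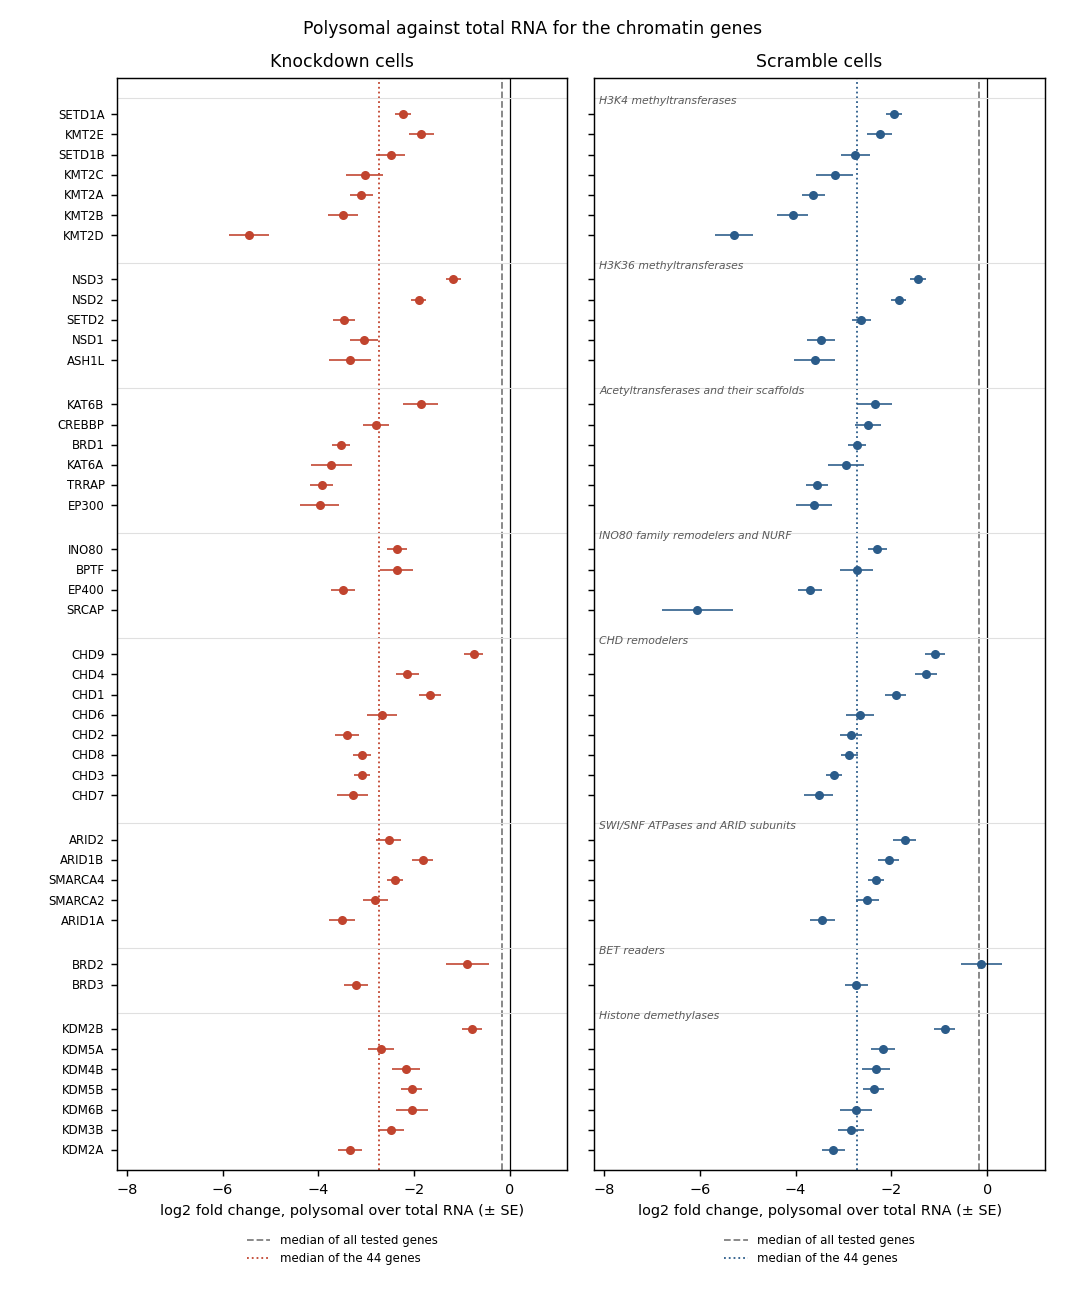
Log2 fold change of polysomal over total RNA (± SE) for each gene in knockdown cells and in scramble cells, with dashed lines at the median of all tested genes and dotted lines at the median of the 44. SRCAP is left out of the knockdown panel because its polysome counts were 0, and the other genes lie to the left of the median of all tested genes in both panels, except BRD2 in scramble cells, which lies at −0.12.

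Length went with the polysomal to total difference within the list and over all genes. In scramble cells log2 transcript length and the log2 fold change had r = −0.523 and rho = −0.488 over the 44 genes, and r = −0.541 and rho = −0.604 over 12666 protein-coding genes. In knockdown cells the values were r = −0.376 and rho = −0.360 over the 44, and r = −0.462 and rho = −0.556 over the protein-coding genes. Without SRCAP, whose knockdown polysome counts were 0, the 43 other members had r = −0.404 and rho = −0.331 in knockdown cells. These are descriptions across genes measured in the same libraries. The 41 listed genes with transcripts of at least 5000 nt were all called lower in polysomes with either hairpin, while of 3064 other protein-coding genes of that length 66.8% were called lower in knockdown and 69% in scramble cells. The medians were −2.80 for the 41 against −1.41 for the others in knockdown cells, and −2.73 against −1.41 in scramble cells. Among transcripts of at least 10000 nt, the 16 listed genes had a median of −3.04 against −1.69 for 476 others in knockdown cells, and −3.33 against −1.74 in scramble cells. Between 8000 and 10000 nt, 9 listed genes had −3.47 against −1.57 for 459 others in knockdown cells, and −2.85 against −1.68 in scramble cells. In both of these bins the listed genes had the lower median. Between 6000 and 8000 nt, 11 listed genes had −2.23 against −1.37 for 1114 others in knockdown cells, and −2.30 against −1.39 in scramble cells. Between 5000 and 6000 nt, 5 listed genes had −2.49 against −1.24 for 1015 others in knockdown cells, and −2.50 against −1.23 in scramble cells. For the 3 listed genes between 4000 and 5000 nt only the medians were close to others of their length. They were −0.89 against −0.80 for 1616 others in knockdown cells, and −0.89 against −0.87 in scramble cells. The 3 genes themselves lay apart, with knockdown cells first. BRD1 had −3.53 and −2.72, BRD2 −0.89 and −0.12, and KDM2B −0.80 and −0.89. No test was made of these differences, and the bins match transcript length but not coding length. The polysome libraries as a whole held shorter transcripts, with a median of 1603 to 1777 nt per count against 2741 to 3079 nt in the total libraries, and the part of this shift in the result was not tested.

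**Figure D3:**
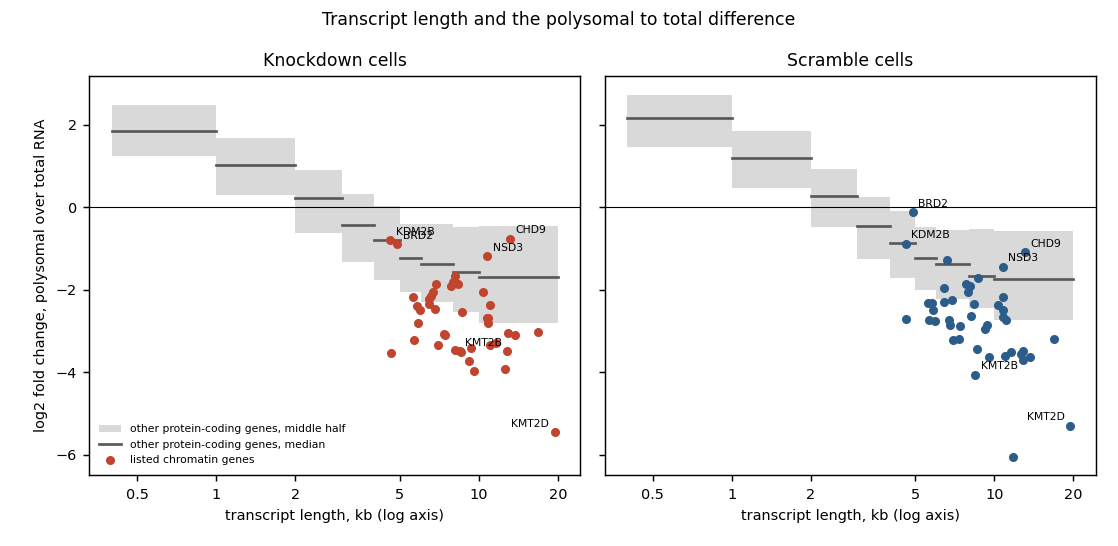
Transcript length (kb, log axis) against the log2 fold change of polysomal over total RNA in knockdown and in scramble cells, with the listed genes as coloured points and grey bands and lines for the interquartile range and median of other protein-coding genes in bins of length. SRCAP is left out of the knockdown panel because its polysome counts were 0, and the coloured points with transcripts of at least 5000 nt have medians of −2.80 and −2.73, against −1.41 and −1.41 for the other genes of that length.

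Other subunits of chromatin complexes were called in both directions. Of 113 tested subunits (116 listed, Polycomb subunits included), 32 (28.3%) were called higher and 50 (44.2%) lower in polysomes of knockdown cells, where 28.9% of all tested genes were called higher and 34.1% lower. In scramble cells 33 (29.2%) were called higher and 51 (45.1%) lower, where 29.7% of all tested genes were called higher and 33.7% lower. Their medians were −0.31 in knockdown and −0.32 in scramble cells, and their median transcript length was 3271 nt. In the COMPASS complexes that hold the KMT2 and SETD1 enzymes, 7 of 12 partners (58.3%) were called lower and 1 higher in scramble cells. The one called higher was DPY30, a small core subunit with a transcript of 708 nt, which had 200 and 221 CPM in knockdown polysomes against 40.3 and 29.1 CPM in knockdown total RNA, and 206 and 192 CPM in scramble polysomes against 30.9 and 30.8 CPM in scramble total RNA (log2 fold changes 2.60 ± 0.18 and 2.69 ± 0.18). HCFC1, a large partner with a transcript of 8869 nt, was lower at −3.73 ± 0.18 and −3.37 ± 0.17. Among 24 partners of INO80, SRCAP and TIP60, 12 (50.0%) were called higher in each kind of cell, 4 (16.7%) lower in knockdown and 5 (20.8%) lower in scramble cells, beside the shares of all tested genes given above. INO80C, a small subunit of the INO80 complex, had 144 and 170 CPM in knockdown polysomes against 19.0 and 15.3 CPM in knockdown total RNA, and 185 and 207 CPM in scramble polysomes against 19.7 and 21.2 CPM in scramble total RNA. INO80C thus lay above its total libraries in every polysome library, whereas INO80 lay below.

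In the SWI/SNF complexes, 4 of 18 tested partners were higher and 9 (50.0%) lower in polysomes of knockdown cells, and 4 higher and 10 (55.6%) lower in scramble cells, against 34.1% and 33.7% of all tested genes called lower. PBRM1 and SMARCC2 had log2 fold changes of −2.01 and −2.45 in knockdown and −2.20 and −2.57 in scramble cells. Of the 12 NuRD partners, 3 were called higher and 5 lower with either hairpin, the medians were −0.12 in knockdown and 0.02 in scramble cells, and CDK2AP1 had 1.99 and 1.85. Of the 9 MOZ and HBO1 partners, 7 (77.8%) were called lower and 2 higher with either hairpin, and BRPF3, a scaffold like BRD1, had −2.35 and −2.61. Of the 16 SAGA and ATAC subunits, 5 were called higher and 7 lower with either hairpin, with medians of −0.28 in knockdown and −0.42 in scramble cells. Of the 22 tested Polycomb subunits (24 listed), which repress genes through H3 lysine 27 and H2A marks, 5 were higher and 11 lower in knockdown cells, and 6 higher and 10 lower in scramble cells. Of 66 tested chromatin enzymes and readers outside the list, with a median transcript of 5367 nt, 48 (72.7%) were called lower with either hairpin, 6 higher in knockdown and 7 higher in scramble cells. Their medians were −1.52 in knockdown and −1.66 in scramble cells.

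**Figure D4:**
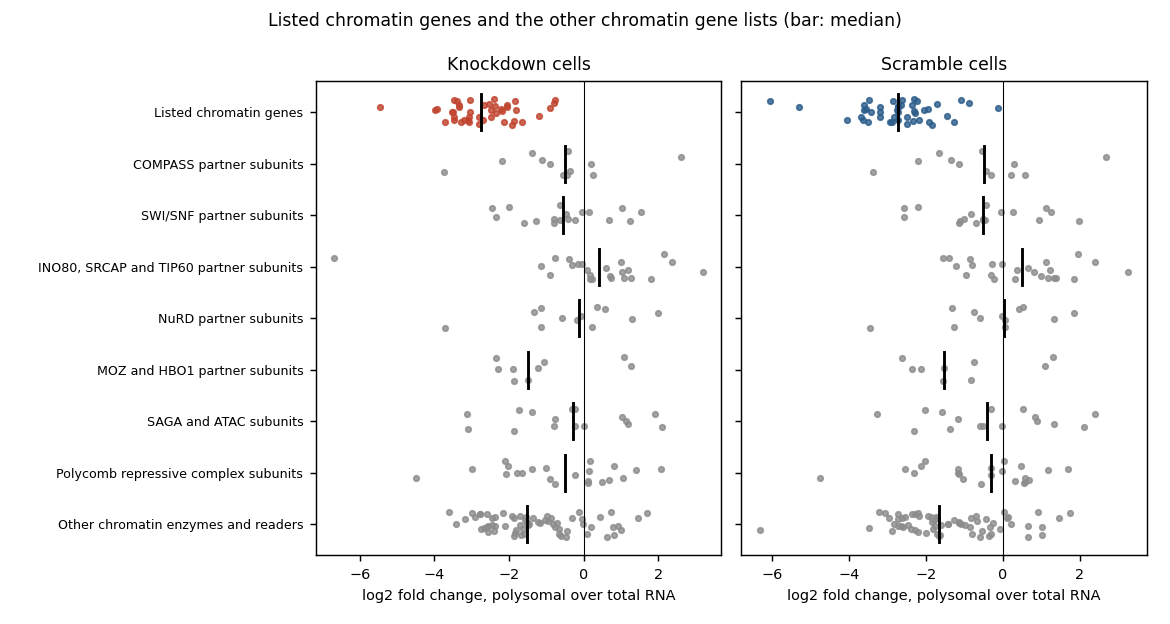
Log2 fold change of polysomal over total RNA for each gene of the 44 and of the other chromatin lists, in knockdown and in scramble cells, with a bar at each list's median. The 44 genes have medians of −2.74 and −2.72, other chromatin enzymes and readers −1.52 and −1.66, and the INO80, SRCAP and TIP60 partners 0.41 and 0.51.

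In total RNA, no member passed the test for a difference between EIF4G2 knockdown and scramble cells. edgeR called 0 of 44, as it did for all 16228 tested genes (0%), DESeq2 called 0 of 44 (background 0.239%), and 2 members had an unadjusted edgeR p under 0.05 (background 3.68%). Of the 44 log2 fold changes, 37 were below 0, against 47.1% of all tested genes, with a median of −0.22 against 0.02. Both knockdown libraries lay below both scramble libraries for 22 genes (background 23.1%) and above them for 3 (background 24.8%). The 3 were SETD1A, BRD1 and CHD4. Fewer cells of a type and less RNA per cell cannot be told apart in such bulk RNA.

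CHD4 had the highest log2 fold change in total RNA, with 41.1 and 28.2 CPM in knockdown cells against 22.9 and 23.6 CPM in scramble cells (0.58 ± 0.22, edgeR adjusted p = 1). KDM6B, KDM2B, BRD3 and SETD1A followed with 0.21, 0.12, 0.11 and 0.09. CHD1 had 31.9 and 44.5 CPM in knockdown total RNA against 53.4 and 52.3 CPM in scramble total RNA (−0.47 ± 0.21, edgeR adjusted p = 1). CHD6, KAT6A, CHD9 and TRRAP had −0.55, −0.48, −0.44 and −0.42, and SRCAP, with few counts, −0.69. These members were lower in both knockdown libraries than in either scramble library. The 2 knockdown libraries differed from each other, however. Against the mean of the scramble libraries, the median of the 44 was −0.40 in knockdown replicate 1, with 40 of 44 below, and −0.04 in knockdown replicate 2, with 29 below. Other protein-coding genes of at least 5000 nt had −0.23 and −0.03 in the same libraries. The median log2 fold change of the 44 became −0.04 without knockdown total replicate 1 and −0.40 without knockdown total replicate 2.

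In polysomal RNA, likewise, no member passed edgeR's test between knockdown and scramble cells, with 0 of 44 called where 0.0123% of all tested genes were. Of the 44, 9 had an unadjusted p under 0.05 (background 13.3%), 8 of them lower in knockdown polysomes (background 7.89%). The median log2 fold change was −0.19 against −0.01 over all tested genes, with 30 of 44 below 0 (background 51.4%). Both knockdown polysome libraries lay below both scramble polysome libraries for 14 genes (background 18.5%) and above them for KDM6B alone (background 15.5%). The median rested on scramble polysome replicate 1, the polysome library with the lowest mitochondrial share. It was 0.00 without that library and −0.46 without scramble polysome replicate 2.

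SETD2 was the member with the smallest p in polysomal RNA, with 5.33 and 5.60 CPM in knockdown polysomes against 12.8 and 9.44 CPM in scramble polysomes (log2 fold change −1.03 ± 0.22, edgeR adjusted p = 0.161). DESeq2 called it lower, as the 1 member it called, with an adjusted p of 0.0151, where it called 0.955% of genes lower. Without any filter on low counts edgeR called 5 members lower (background 1.24%). These were SETD2, KAT6A, ARID2, TRRAP and KDM5A. ARID2 had 2.77 and 3.14 CPM in knockdown polysomes against 6.01 and 6.35 CPM in scramble polysomes (−1.07 ± 0.27, edgeR adjusted p = 0.181). BRD1 had 3.37 and 3.56 CPM against 5.52 and 6.29 CPM in the same groups (−0.77 ± 0.20, edgeR adjusted p = 0.189). For SETD2, ARID2 and BRD1 the knockdown and scramble polysome libraries did not overlap, and the log2 fold changes stayed between −1.30 and −0.81, −1.22 and −1.0, and −0.88 and −0.74 when each library was left out in turn. TRRAP had 4.93 and 4.16 CPM in knockdown polysomes against 7.74 and 8.01 CPM in scramble polysomes (−0.79 ± 0.25, edgeR adjusted p = 0.244). KAT6A had 2.97 and 0.849 CPM against 4.93 and 4.57 CPM in the same groups (−1.26 ± 0.45, edgeR adjusted p = 0.284). The knockdown libraries of KAT6A differed severalfold from each other. BRD2 had −0.86 ± 0.46, with overlapping libraries.

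At the other end, KDM6B had 2.16 and 4.07 CPM in knockdown polysomes against 1.79 and 1.48 CPM in scramble polysomes (log2 fold change 0.91 ± 0.37, edgeR adjusted p = 0.328). Its knockdown libraries differed from each other, and the log2 fold change ran from 0.33 to 1.28 when each library was left out in turn. KMT2B, NSD1, KDM2B and NSD3 had 0.55, 0.27, 0.21 and 0.16. In these 4 genes the libraries of the groups overlapped, and the sign of KMT2B, NSD1 and NSD3 changed when 1 polysome library was left out. SRCAP, with 0 and 0 counts in knockdown polysomes and 1 and 2 counts in scramble polysomes, is at or under the floor in both groups.

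The change of the polysomal to total ratio under knockdown was tested as the interaction of hairpin and fraction. Of the 44, 21 had a higher and 23 a lower ratio in knockdown cells, where 55.9% of all tested genes had a lower one, with a median log2 change of −0.04 against −0.07 over all tested genes. edgeR called 0 of 44, as it did over all tested genes (0%), and DESeq2 called 0 of 44 (background 0.0246%). At an unadjusted p under 0.05 there were 4 members (background 6.27%), all with a lower ratio in knockdown cells (background 4.33%). These were CHD4 (−0.87 ± 0.33), SETD2 (−0.84 ± 0.29), BRD1 (−0.81 ± 0.26) and ARID2 (−0.81 ± 0.35), each with an edgeR adjusted p of 0.776. CHD2 followed with −0.55 ± 0.32. The polysomal level of SETD2 was 9.05% of its total level in knockdown cells and 16.1% in scramble cells, and that of ARID2 17.3% and 30.2%. The highest values were those of KDM6B (0.70 ± 0.47), KMT2B (0.57 ± 0.44), KMT2A (0.52 ± 0.33), KAT6B (0.49 ± 0.50) and NSD1 (0.44 ± 0.39). That of KDM6B ran from 0.14 to 1.09 when each library was left out in turn. By role, the median change was 0.26 for the KMT2 and SETD1 family, 0.26 for the H3 lysine 36 methyltransferases, −0.36 for the acetyltransferases and scaffolds, 0.07 for the INO80 family with BPTF, 0.05 for the CHD remodelers, −0.08 for the SWI/SNF subunits, −0.63 for the pair of BET readers and 0.14 for the demethylases, and no role was tested as a group. The median of the 44 moved to 0.21 without knockdown total replicate 2 and to 0.22 without scramble polysome replicate 1.

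**Figure D5:**
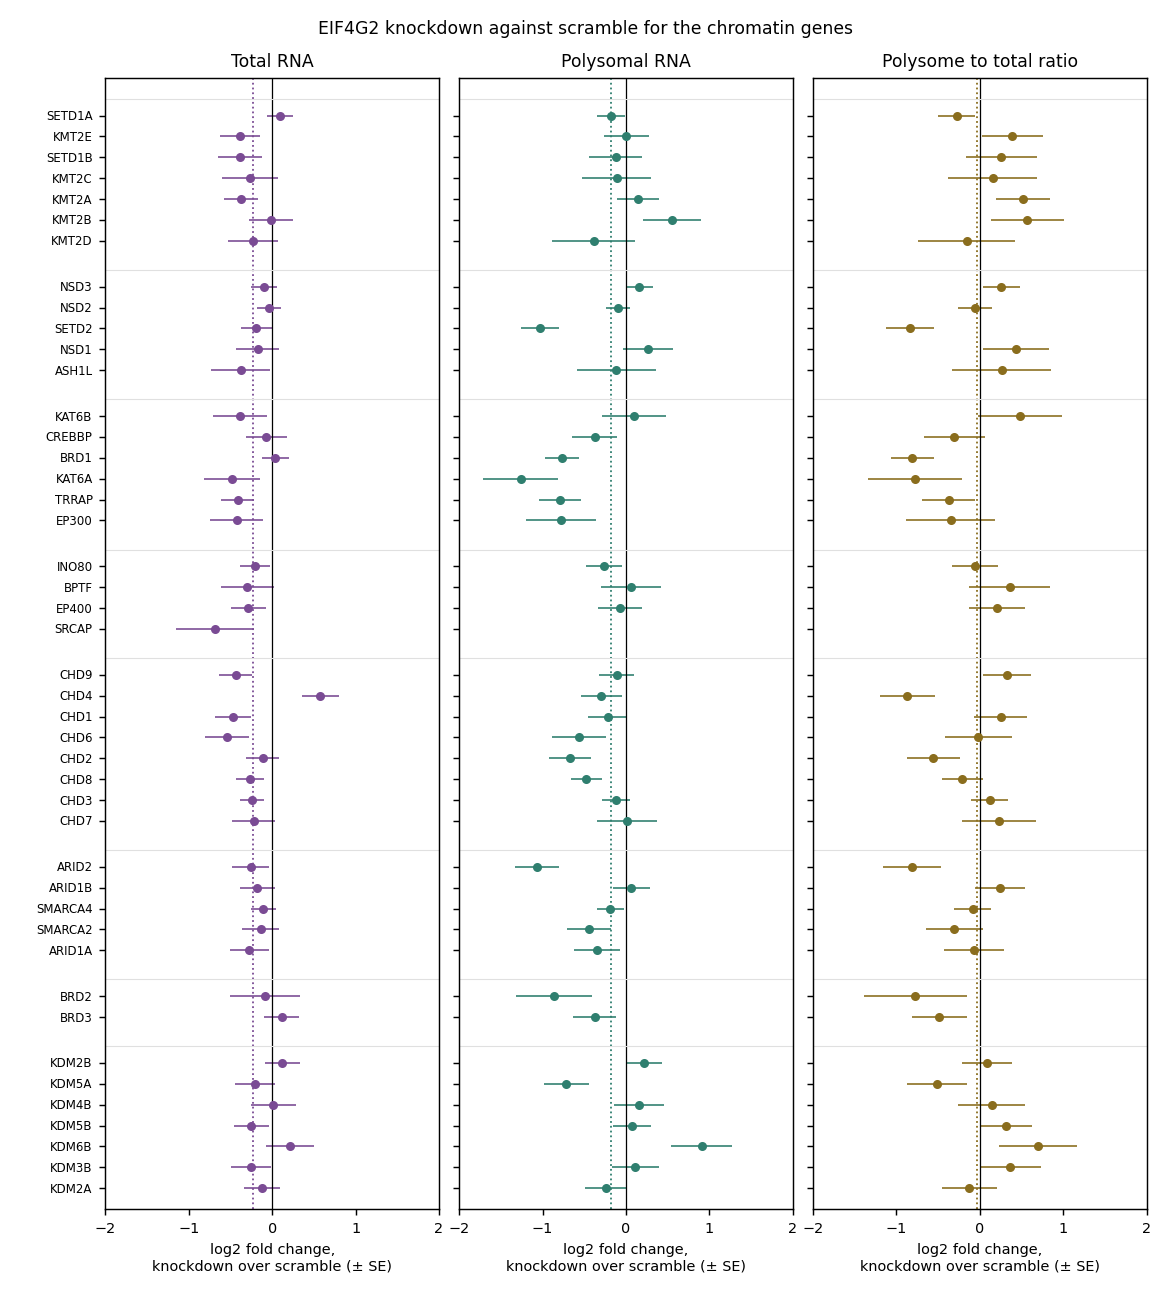
Log2 fold change of knockdown over scramble (± SE) for each gene, with total RNA, polysomal RNA and the ratio of both in a panel each and dotted lines at the median of the 44. SRCAP is left out of the polysomal and ratio panels because its polysome counts were at or under the floor, and the medians are −0.22, −0.19 and −0.04.

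The order of the members by polysome share was much alike with both hairpins. The log2 fold changes of polysomal over total RNA in knockdown cells and in scramble cells had r = 0.885 and rho = 0.85 over the 44 genes, and r = 0.847 and rho = 0.921 over 12666 protein-coding genes, as a description across genes. Without SRCAP the members had r = 0.891 and rho = 0.84. KMT2D and SRCAP were at the low end in both, and CHD9, KDM2B, BRD2 and NSD3 were at the high end in both. Within the ordered list in scramble cells, KMT2D (−5.30 ± 0.40) lay below KMT2B (−4.06 ± 0.32) by more than their standard errors, while neighbours between EP400 (−3.70 ± 0.25) and ARID2 (−1.73 ± 0.24) differed by less than theirs. The paralogs BRD2 and BRD3 stood apart by 2.33 in knockdown and 2.61 in scramble cells, KMT2C and KMT2D by 2.42 and 2.11, and KDM2A minus KDM2B was −2.54 and −2.32, on the log2 scale. CHD8 minus CHD9 was −2.33 and −1.79, and ARID1A minus ARID1B −1.70 and −1.38. SMARCA2 and SMARCA4 were close, with a difference of −0.40 and −0.18. For CHD3 and CHD4 the difference was −0.94 in knockdown cells and −1.92 in scramble cells.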

How the data were processed

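The authors deposited whole-number counts per gene symbol without normalization, for 8 polyA-enriched, paired-end libraries of human IHCF cells. Alignment to GRCh38 with HISAT2 2.1.0 is not spelled out, but both are named in the submitters' processing notes, as are featureCounts, Subread 2.0.1 and Trimmomatic 0.36, besides R 4.1.2, bcl2fastq 2.19.0 and DESeq2. The annotation, the strand setting and the handling of reads with several matches or in shared exons are not given in the sources used here, so counts of overlapping genes are uncertain. The design text names triplicates, of which 2 per group were analysed here.

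Groups and replicate numbers came from the sample titles. Counts were fitted with edgeR 4.0.16 in R 4.3.3 (filterByExpr over the 4 groups, TMM, robust quasi-likelihood, a mean per group, all 8 libraries, 4 residual degrees of freedom). P-values of each of the 5 contrasts were adjusted over all 16228 genes (Benjamini-Hochberg), and 0.05 was the threshold. A standard error is the absolute log2 fold change over the square root of F. TMM sets the baseline of the polysomal to total comparisons, and a polysomal level is relative to other genes in the library, not an amount per cell. Overdispersion was larger in polysome libraries (biological coefficient of variation 0.265) than in total libraries (0.113), and the fit shares 1 estimate. Lengths and sequences came from 1 representative GENCODE release 29 transcript per gene. No deposited column was left unused.

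The members, the 8 roles, the 8 lists of 183 other chromatin genes and the tests were chosen with earlier results of these data known. Named were, in each comparison, the 5 members with the highest, the 5 with the lowest log2 fold change and the 5 with the smallest p, and the extremes of each role in scramble cells. Partner genes named are among the 2 with the smallest p in their list. The other members are given to account for the list. On simulated data the fit recovered 95% of 200 genes changed 4-fold in the polysomal knockdown comparison, 97% in the total one and 90% for the ratio. Over the 5 comparisons 3.74% to 6.73% of calls were false. The simulation gave every library the shared dispersion and changed no gene with low counts. It therefore does not show how well smaller changes, scarce genes or the more variable polysome libraries are covered. Alternatives were other scalings, no filter, DESeq2 1.42.0, a replicate block, the 4 libraries of a comparison alone, coding length, and leaving out each library, where the lone library left in a group is assumed to vary like the other groups. Same-numbered libraries did not deviate together (correlations −0.0921 to 0.0264).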

Additional observations from a re-analysis of the deposited data

How the results depend on the processing

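The low polysome level of the members held under every alternative, with 41 to 44 called lower in knockdown cells and 43 in scramble cells when each library was left out in turn. Without TMM, scaled to library totals only, the member medians were −3.80 in knockdown and −3.72 in scramble cells, and the medians of all tested genes −1.22 and −1.16. The all-gene calls then split into 1777 higher and 9218 lower in knockdown cells and 2134 higher and 8852 lower in scramble cells, against 4690 and 5539, and 4827 and 5466, under TMM. Relative to the median of all tested genes the members lay at −2.59 and −2.55 on library totals, and at −2.58 and −2.56 under TMM. Leaving out 1 library gave medians of −2.98 to −2.51 in knockdown and −2.99 to −2.48 in scramble cells. With coding length in place of transcript length, r over the protein-coding genes was −0.509 in knockdown and −0.564 in scramble cells. Over the 44 genes, SRCAP included, it was −0.433 in knockdown and −0.605 in scramble cells.

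In the knockdown comparison in polysomal RNA, 5 members were called without the filter on low counts and 1 by DESeq2, and the cause was not tested. An edgeR fit of only the 4 polysome libraries called 0 members and was weaker than the main fit. It gave 3 members an unadjusted p under 0.05, against 9 in the main fit. Its smallest edgeR adjusted p was 0.532, against 0.161. The median ran from −0.46 to 0.0017 when 1 library was left out, and that of the ratio from −0.18 to 0.22. In total RNA it ran from −0.40 to −0.04. An edgeR fit of only the 4 total libraries also called 0 members but was stronger than the main fit. It gave 5 members an unadjusted p under 0.05, against 2 in the main fit, and a smallest edgeR adjusted p of 0.286. Of all 16222 genes in that fit, 2169 had an unadjusted p under 0.05, against 598 of 16228 in the main fit. It called 9 genes higher and 2 lower. In the knockdown comparisons the main fit called no member, so no called member could turn sign there. Among the named members, signs turned for those listed next, all of them not called. Their ranges with 1 library left out were −0.0048 to 0.40 for KDM6B, −0.040 to 0.27 for KDM2B and −0.11 to 0.30 for BRD3 in total RNA, each turning without knockdown total replicate 2. In polysomal RNA KMT2B ran from −0.28 (without knockdown polysome replicate 1) to 0.96, NSD1 from −0.22 (without scramble polysome replicate 2, and −0.077 without knockdown polysome replicate 2) to 0.84, and NSD3 from −0.044 (without scramble polysome replicate 2) to 0.29. For the ratio KMT2B ran from −0.24 and KAT6B from −0.11 (both without knockdown polysome replicate 1) to 0.99 and 0.97, and NSD1 from −0.027 (without scramble polysome replicate 2) to 1.03. Between fractions in scramble cells BRD2 ran from −0.81 to 0.25, the highest without scramble polysome replicate 1. It was called lower on library totals (−1.95 in knockdown, −1.14 in scramble cells), and in knockdown cells also without the filter (−1.07) and without knockdown polysome replicate 2 (−1.69). Without knockdown total replicate 2, CHD9 (−0.46) and KDM2B (−0.63) were no longer called between fractions in knockdown cells.

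A fit with a replicate block, although the numbers are not known to pair the libraries, called 0 members in each of the 3 knockdown comparisons and 43 in each fraction comparison. Its medians under this replicate block were −0.23, −0.18 and −0.04, and −2.75 in knockdown and −2.73 in scramble cells. Leaving out the 6 members with over 10% of exonic bases in exons of other genes, an alternative chosen after seeing the data, left 38 of 38 called lower in both fraction comparisons and a ratio median of 0.10. The 6 were SRCAP (76.0%), CHD4 (53.5%), KMT2A (18.9%), BRD3 (18.6%), BRD2 (11.9%) and CHD2 (10.2%), whose counts are uncertain for this reason. Depth limited the polysome values, since the median member had 74 to 177.5 counts per polysome library, against 1366 to 1703 in total RNA.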
